A study of Mus musculus and Acomys cahirinus with 84 samples.

Results

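The lamin genes *Lmnb1*, *Lmnb2* and *Lmna*, the nuclear envelope genes *Lbr*, *Tmpo*, *Emd*, *Sun1* and *Sun2*, and the high mobility group box genes *Hmgb1* and *Hmgb2* were followed through gamma irradiation of primary skin fibroblasts. These 10 genes were chosen by name. All 10 were found among the 56980 genes of the mouse count table and the 19818 genes of the *Acomys* count table, and all 10 passed the filter on low counts in every population. PolyA RNA was sequenced from fibroblasts of mice labelled C56BL6, of wild mice and of *Acomys cahirinus*, the African spiny mouse, a rodent known for skin regeneration. In each population the groups at 24 h were untreated (0 Gy), 10 Gy and 20 Gy, and the groups at 12 d were untreated, 10 Gy, 20 Gy and untreated passaged, each with 4 libraries numbered by animal, or 84 libraries in 21 groups. No transgene, knockout or drug was named for any group, and neither sex nor age of the animals was given. What sets the passaged cells apart from the untreated cells of the same day, beyond the name, was not given either. All 24 h libraries were labelled batch B1 and all 12 d libraries batch B2, so an effect of time cannot be told apart from one of batch, and no test was made across times.

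The nuclear lamina is a meshwork of lamin filaments under the inner nuclear membrane. B-type lamins, encoded by *Lmnb1* and *Lmnb2*, stay attached to the membrane, whereas the A-type lamins A and C are splice products of *Lmna*. The lamin B receptor (*Lbr*), most but not all LAP2 proteins (*Tmpo*) and emerin (*Emd*) are inner membrane proteins that bind lamins and chromatin. SUN1 and SUN2 span the inner membrane and connect through nesprins to the cytoskeleton. HMGB1 and HMGB2 are abundant proteins that bend DNA in chromatin, and HMGB1 can also leave the cell and act as a danger signal. Loss of lamin B1 and of nuclear HMGB proteins is widely used to recognise senescent fibroblasts, cells that have stopped dividing for good after damage such as ionising radiation.

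Promoter sequence was used for 9 of the 10 genes and none for *Lmnb1*. From it 3 windows are shown because they hold side by side the letters CCAAT and TTTGAA. Both are known from promoters of genes active late in the cell cycle. Both strands were searched in the 250 bases before each RefSeq start (mouse build GRCm38.p6), and TTCAAA is TTTGAA read on the other strand. Of 32851 mouse promoters, 33.8% held CCAAT, 16% held TTTGAA and 5.55% held both. The last share counts both anywhere in the 250 bases, and no share was computed for both within 30 bases. Some of the genes had 2 starts, each searched as a promoter. TTTCCCGC or TTTGGCGC, also searched, was held by 1.3% of promoters and, among these genes, by 1 of the 2 starts of *Tmpo*. *Lbr*, *Sun2* and *Hmgb2* held both in the same promoter. Capitals mark the matches in each 30-base window, written 5′ to 3′ on the gene's strand.
Lbr: atgaTTCAAAaggtcgagggaCCAATgggg
Sun2: ctttgtgTTCAAAtcaaCCAATgggcggcg
Hmgb2: gggTTTGAAtaatcctccacagCCAATcag
The *Lbr* window lies at chr1:181842421-181842450 on the minus strand, 49 to 20 bases before the start. The *Sun2* window lies at chr15:79742609-79742638 on the minus strand, and its last base is 73 bases before the start. The *Hmgb2* window lies at chr8:57511810-57511839 on the plus strand, 33 to 4 bases before the start. These matches describe letters only, and their part in the results below was not tested. In the count table's build, GRCm39, *Lbr* spans chr1:181641631-181672984 on the minus strand, *Lmna* chr3:88387454-88417299 on the minus strand, *Lmnb2* chr10:80737037-80754110 on the minus strand and *Hmgb2* chr8:57964687-57969276 on the plus strand. *Tmpo* spans chr10:90983375-91017177, *Sun2* chr15:79608271-79626768 and *Hmgb1* chr5:148983445-149121815, all on the minus strand, and *Sun1* chr5:139185970-139235606 and *Emd* chrX:73298286-73305169 on the plus strand.

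Depth ran from 17.42 M counted reads in a wild mouse library to 52.86 M in an *Acomys* library, the C56BL6 libraries held 26.65 to 39.82 M, and the lowest count of any of the 10 genes in a library was 49. Changes are log2 fold changes with standard errors (SE) from edgeR's quasi-likelihood test, and a gene was called at a Benjamini-Hochberg adjusted p under 0.05 over all genes tested. A second fit, called matched by animal, adds the replicate number as a block, and for the 10 genes its result is given where it changes a call. Levels are counts-per-million (CPM) or, between genes, CPM divided by the exon length in kilobases (RPKM). All 8 fibroblast markers were detected, with a summed level of at least 10600 CPM in every library. Among markers of other cells, the 5 keratinocyte genes summed to 193 to 837 CPM in replicate 1 of every C56BL6 group and the 3 skeletal muscle genes to 702 to 6640 CPM in every *Acomys* library. In wild mice the skeletal muscle genes summed to 762 to 1420 CPM in replicate 1 at 24 h, to 318 to 399 CPM in replicate 3 at 24 h and 135 to 439 at 12 d, and to at most 9.13 CPM in the other wild libraries. The 3 smooth muscle and pericyte genes, led by *Acta2*, summed to 1740 to 7540 CPM in C56BL6, 2960 to 18500 in wild mice and 3020 to 7030 in *Acomys*. In C56BL6 at 12 d they summed to 1740 to 5130 CPM untreated, 2220 to 4720 after 20 Gy and 6060 to 6350 in passaged cells. Their part in the results was not tested. The endothelial, immune, melanocyte, Schwann and adipocyte lists summed to at most 48.2 CPM. In bulk RNA, fewer cells of a type and less RNA per cell cannot be told apart.

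Some wild mouse libraries stand apart. Replicate 1 of the 10 Gy group at 24 h had 3.308 CPM of *Lbr* against 18.11 to 20.52 in the other 3, 43.35 CPM of *Sun1* against 79.18 to 81.41, and 38.69 CPM of *Hmgb2* against 13.07 to 14.28. Its 3 smooth muscle and pericyte markers summed to 18500 CPM, against 3770 to 5820 in the other 3 libraries, but they were also high in the untreated and 20 Gy libraries numbered 1 at 24 h (14900 and 13600 CPM). At 12 d the libraries numbered 1 did not follow their label: 39 genes were on (at least 2 CPM) in one and off (at most 0.1 CPM) in the other when they were set against wild replicate 1 at 24 h, but 0 genes when they were set against wild replicate 4 at either time. No such gene separated the 2 times of any other wild number. A count of 0 also occurs between C56BL6 replicates 3 and 4 of one time and between most *Acomys* libraries. Within the wild 12 d groups, the variance between libraries 1 and 4 was 18.2 to 32.3 times that of sampling noise. That of the other pairs was 75.7 to 467 times. C56BL6 replicates 3 and 4 were closer still, at 6.88 to 16.6 times, so such closeness alone does not show that libraries share an animal. Because the wild libraries numbered 1 at 12 d also did not follow their label, 4 separate animals cannot be stated for these wild groups. The matched fits that involve wild mice were therefore also made without replicate 1, an alternative added after the data were seen; between populations, replicate 1 of both was left out.

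Per length, *Lmna* had the highest mean of the 10 genes in every population. In untreated cells at 24 h it had 120.3 ± 14.8 RPKM (SD, n = 4) in C56BL6, 102.4 ± 4.27 in wild mice and 164.8 ± 34.5 in *Acomys*, where *Hmgb1* at 138.8 ± 33 lay within its spread. In C56BL6 it was followed by *Emd* (30.71 ± 1.64 RPKM), *Hmgb1* (28.84 ± 5.44), *Lmnb1* (24 ± 3.08) and *Sun2* (23.45 ± 0.588), neighbours in that order that did not differ beyond their spread. *Hmgb2* (12.64 ± 2.6 RPKM), *Sun1* (12 ± 0.241) and *Tmpo* (11.82 ± 3.09) formed the next level, above *Lbr* (7.941 ± 0.845) and *Lmnb2* (5.224 ± 0.614). In *Acomys* after 20 Gy at 12 d, *Lmna* still had 147 ± 22.4 RPKM, whereas *Lmnb1* was the lowest of the 10 at 1.686 ± 0.167, next to *Lbr* at 1.727 ± 0.169. Exon lengths and gene models differ between the 2 tables, so levels were not compared between *Acomys* and mice.

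**Figure D1:**
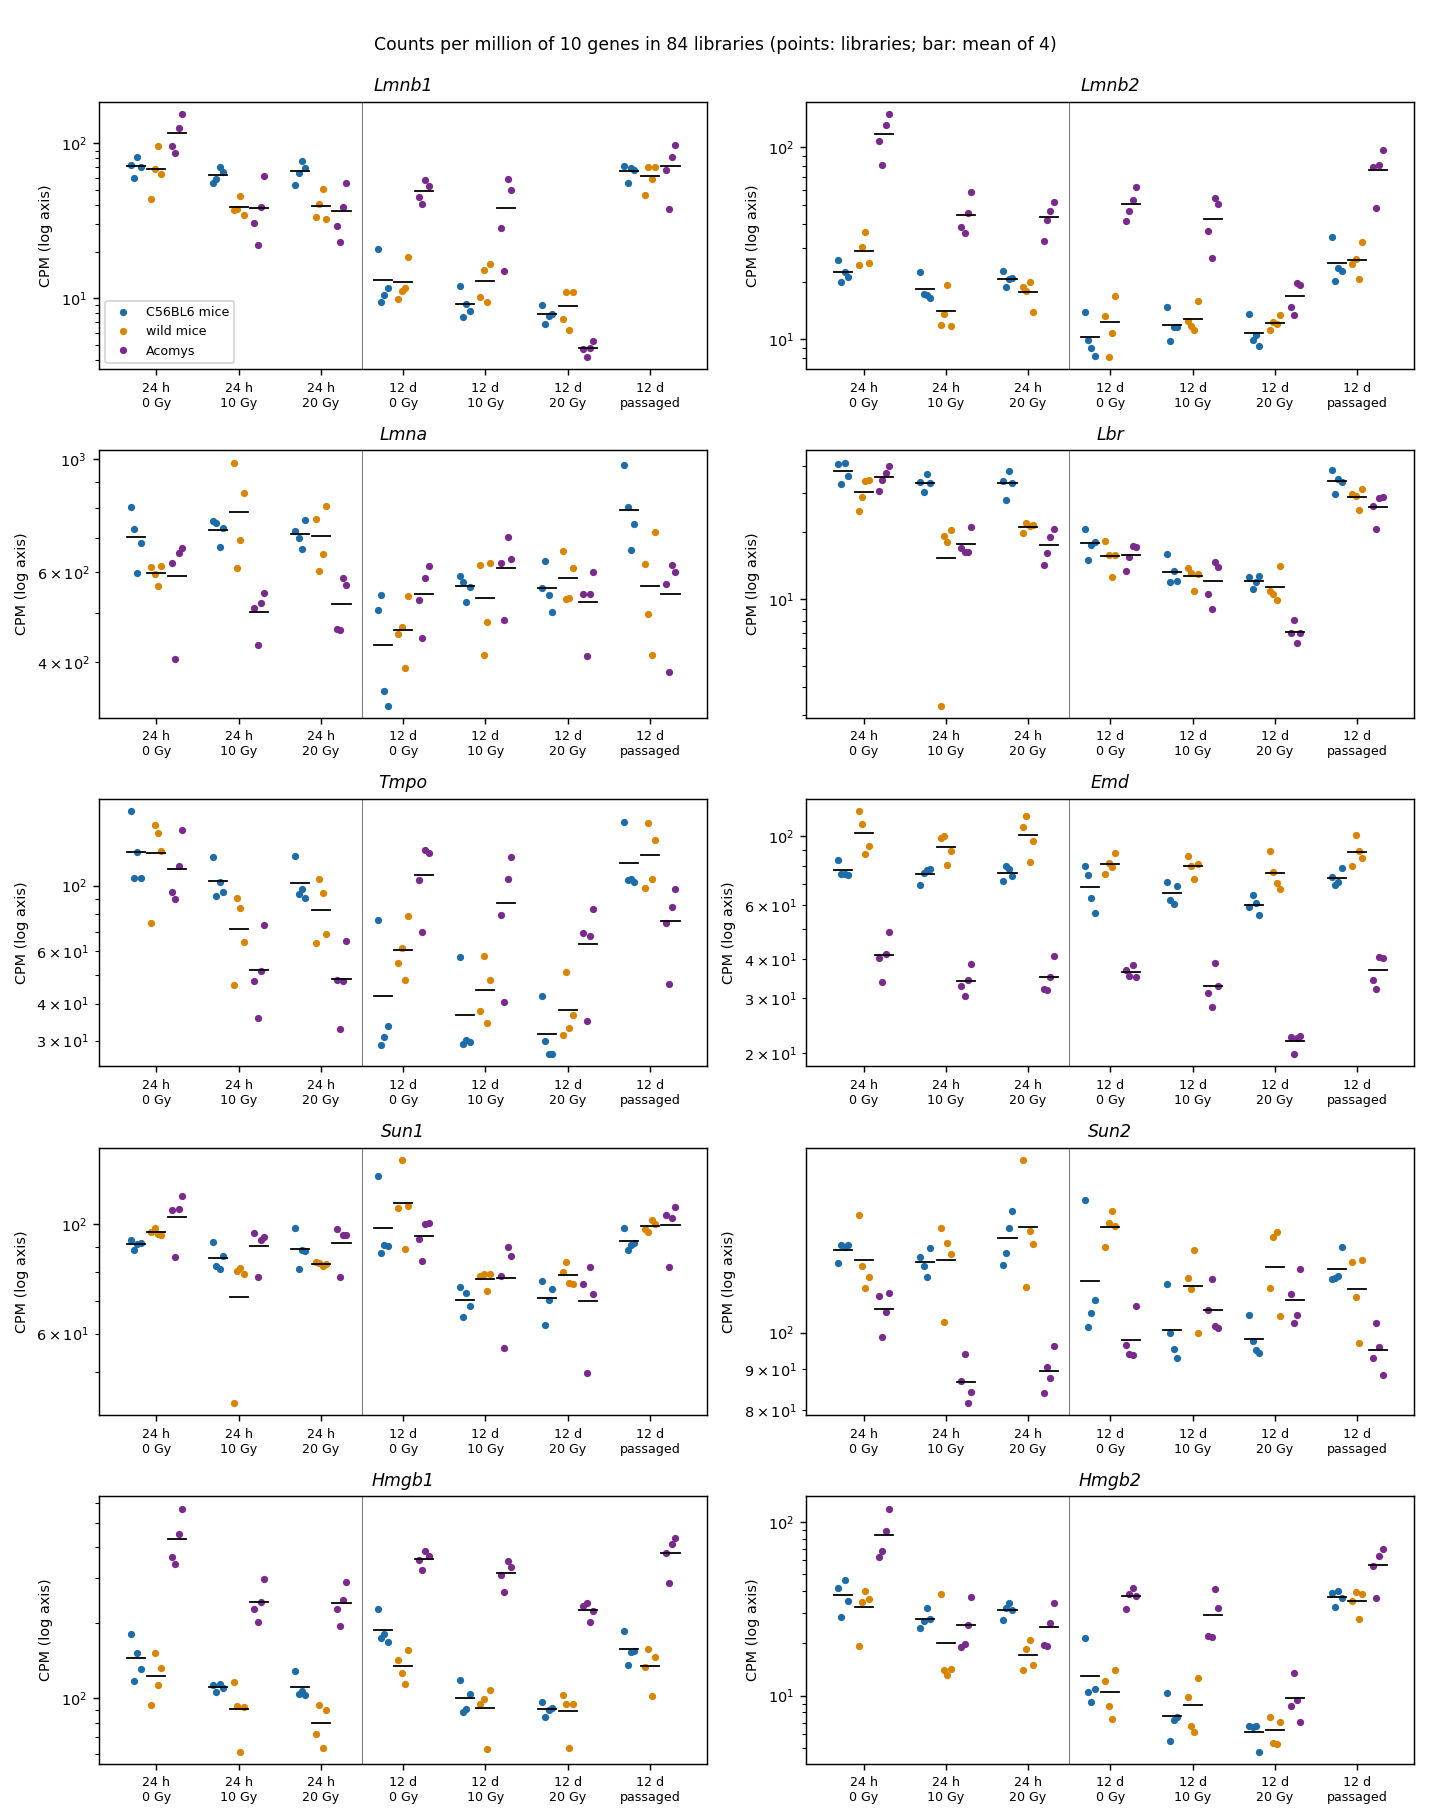
CPM (log axis) of each of the 10 genes in the 3 populations, by dose and time, with 1 point per library and a bar at the mean of 4. In *Acomys* (purple) *Lmnb1* falls from 40.88 to 58.15 CPM in untreated cells at 12 d to 4.183 to 5.336 CPM after 20 Gy.

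At 24 h after irradiation 6 of the 10 genes were lower in *Acomys*: both B-type lamins, *Lbr*, *Tmpo*, *Hmgb1* and *Hmgb2*. In C56BL6 and in wild mice none of the 10 was called at that time without matching libraries by animal. Matched by animal at 20 Gy, the same 6 were lower in wild mice, among 12.5% of all genes called. That fit called 3 lower in C56BL6, among 17.6%, and 9 in *Acomys*, among 24.1%. The share of all tested genes called lower in *Acomys* at 20 Gy was 2.70%, and 3.59% were called in either direction. The median log2 fold change of the 10 genes was -0.92, against 0.03 for all genes tested.

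*Lmnb1* had 96.45, 87.45, 125.8 and 155.1 CPM in the 4 untreated *Acomys* libraries at 24 h and 29.37, 23.2, 38.6 and 55.4 CPM after 20 Gy. All 4 irradiated libraries lay below all untreated ones, and each animal's value fell. The change was 3.15-fold (log2 -1.66 ± 0.285 SE, edgeR adjusted p = 0.0169). *Lmnb2*, the other B-type lamin, had 107.7, 81.01, 130.4 and 149.2 CPM untreated and 32.35, 41.64, 46.69 and 52.22 CPM after 20 Gy. These groups did not overlap either, at a 2.69-fold decrease (log2 -1.43 ± 0.207 SE, edgeR adjusted p = 0.00948). *Lmna* had 626.5, 406, 652.8 and 670 CPM untreated and 463.4, 462.5, 583.1 and 565.3 after 20 Gy, groups that overlap (log2 -0.17, edgeR adjusted p = 0.654).

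Among the nuclear envelope genes, *Lbr* had 30.72, 34.61, 36.93 and 39.82 CPM in untreated *Acomys* cells at 24 h and 14.31, 16.17, 19.11 and 20.68 CPM after 20 Gy, a 2.01-fold decrease without overlap (log2 -1.01 ± 0.132 SE, edgeR adjusted p = 0.00618). *Tmpo* had 94.99, 90.02, 116 and 154.5 CPM untreated and 48.15, 32.94, 47.65 and 65.22 after 20 Gy, also without overlap (2.33-fold, edgeR adjusted p = 0.0246). *Emd*, *Sun1* and *Sun2* had log2 changes of -0.23, -0.17 and -0.25 with edgeR adjusted p of 0.404, 0.478 and 0.104.

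*Hmgb2* had 62.4, 67.99, 88.28 and 119.2 CPM untreated and 19.56, 19.22, 26.03 and 34.26 CPM after 20 Gy in *Acomys* at 24 h. Its 3.39-fold decrease was the largest of the 10 at this time (log2 -1.76 ± 0.255 SE, edgeR adjusted p = 0.00948). *Hmgb1* had 365.7, 341.3, 450 and 568 CPM untreated and 227.7, 193.2, 245.1 and 290.7 after 20 Gy, a smaller decrease of 1.79-fold (log2 -0.84 ± 0.18 SE, edgeR adjusted p = 0.0406). For both genes all irradiated libraries lay below all untreated ones.

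At 10 Gy 6 genes fell in *Acomys* at 24 h, where 3.10% of all genes tested were called lower and 3.73% were called at all; both doses were compared with the same untreated libraries. The log2 changes at 10 Gy were -1.60 for *Lmnb1*, -1.40 for *Lmnb2*, -1.13 for *Tmpo*, -0.83 for *Hmgb1* and -1.73 for *Hmgb2*, each within 0.1 of its value at 20 Gy, and *Lbr* had an edgeR adjusted p of 0.00546. Between 20 Gy and 10 Gy edgeR called none of the 10, among 0% of all genes, with 0 at an unadjusted p under 0.05 and 0 by DESeq2. All 6 calls at each dose were lost when replicate 1 or replicate 3 was left out. Matched by animal, 9 of the 10 genes were called lower at 20 Gy, with *Emd* (adjusted p = 0.0316), *Sun1* (0.048) and *Sun2* (0.0142) added and *Lmna* (0.212) not, among 24.1% of all genes called. All 10 were called lower at 10 Gy by that fit, among 27.6% of all genes.

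At 12 d after 20 Gy, *Acomys* cells had lost most of their *Lmnb1* transcript, and *Lmnb2*, *Lbr*, *Emd*, *Hmgb1* and *Hmgb2* were lower as well. These were 6 of the 10 genes, where 18.1% of all genes tested were called lower and 31.8% in either direction. The median log2 fold change of the 10 was -0.75, against 0.00 for all genes.

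*Lmnb1* had 45.04, 40.88, 58.15 and 52.99 CPM in untreated *Acomys* cells at 12 d and 4.724, 4.183, 4.74 and 5.336 CPM after 20 Gy. The irradiated libraries lay close together and far below the untreated ones. The decrease was 10.3-fold (log2 -3.37 ± 0.149 SE, edgeR adjusted p = 4.58e-05). *Lmnb2* had 41.15, 46.87, 53.17 and 62.25 CPM untreated and 14.8, 13.44, 19.68 and 19.14 CPM after 20 Gy, a 3.02-fold decrease without overlap (log2 -1.59 ± 0.178 SE, edgeR adjusted p = 0.000607). *Lmna* had 530, 446.7, 583.1 and 617.8 CPM untreated and 543.8, 412, 543.2 and 601.2 after 20 Gy, with overlapping groups and no call (log2 -0.05 ± 0.156 SE, edgeR adjusted p = 0.847).

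*Lbr* had 13.44, 15.5, 17.44 and 17.23 CPM untreated and 7.07, 8.017, 6.321 and 7.012 CPM after 20 Gy in *Acomys* at 12 d, a 2.23-fold decrease without overlap (log2 -1.16 ± 0.121 SE, edgeR adjusted p = 0.000487). *Emd*, whose human counterpart is mutated in a form of muscular dystrophy, had 36.97, 35.33, 38.27 and 35.21 CPM untreated and 22.46, 19.84, 22.39 and 22.66 after 20 Gy (1.66-fold, log2 -0.73 ± 0.0827 SE, edgeR adjusted p = 0.000618). Its 2 groups were each narrow and did not overlap. *Sun1* had 93.52, 84.31, 100.1 and 100.9 CPM untreated and 75.83, 49.78, 81.82 and 72.3 after 20 Gy, not overlapping but not called (edgeR adjusted p = 0.0714; 0.00816 matched by animal). *Tmpo* had 104.5, 69.93, 131.6 and 128.3 CPM untreated and 69.23, 34.89, 67.54 and 83.08 after 20 Gy, overlapping groups that gave edgeR adjusted p = 0.0798 and, matched by animal, 0.000867. *Sun2* had a median of 95.21 CPM untreated and 111.9, 102.7, 105.4 and 120.3 CPM after 20 Gy, a log2 difference of 0.17 ± 0.0881 SE that was not called (edgeR adjusted p = 0.167).

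*Hmgb2* had 31.53, 38.65, 41.54 and 37.69 CPM untreated and 8.728, 13.5, 9.454 and 7.012 CPM after 20 Gy in *Acomys* at 12 d. All irradiated values lay below all untreated ones, at a 3.86-fold decrease (log2 -1.95 ± 0.19 SE, edgeR adjusted p = 0.000368). *Hmgb1* had 353.6, 324, 384.3 and 367.8 CPM untreated and 232.7, 240.5, 201.5 and 223.5 after 20 Gy, a 1.59-fold decrease without overlap (log2 -0.67 ± 0.0936 SE, edgeR adjusted p = 0.00149). In the same libraries the 3 skeletal muscle markers summed to 1910 to 4600 CPM untreated and 974 to 6640 after 20 Gy. The fibroblast markers were lower in all 4 animals, at 31000 to 37100 CPM untreated and 20900 to 34600 after 20 Gy, and the part of both lists in these results was not tested.

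At 12 d *Lmnb1* differed between the 2 doses in *Acomys*. After 10 Gy it had 28.49, 15.04, 59.04 and 49.83 CPM, a wide range in which replicates 3 and 4 lay among the untreated values (log2 -0.38 ± 0.362 SE, edgeR adjusted p = 0.582). EdgeR called none of the 10 genes at 10 Gy, among 2.87% of all genes, with 1 at an unadjusted p under 0.05 and 0 by DESeq2. Between 20 Gy and 10 Gy *Lmnb1* was lower in all 4 animals (log2 -3.00 ± 0.407 SE, edgeR adjusted p = 0.0372). It was the only one of the 10 called lower, among 0.442% of all genes called lower. The call was lost without replicate 1 (edgeR adjusted p = 0.452), without replicate 3 and without replicate 4. Without replicate 2, 6 of the 10 were called lower, and the share of all genes is not given for that fit. Matched by animal, *Lbr* (adjusted p = 0.0254), *Tmpo* (0.0363) and *Sun1* (0.0284) were lower at 10 Gy than untreated, and 7 genes were lower at 20 Gy than at 10 Gy, all but *Lmna*, *Sun1* and *Sun2*. That fit called 27.5% and 17.9% of all genes in these 2 comparisons.

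In C56BL6 at 12 d after 20 Gy *Lbr*, *Sun1*, *Hmgb1* and *Hmgb2* were lower, and *Lmnb1* did not pass the test. These were 4 of the 10, where 13.6% of all genes were called lower and 26.5% in either direction. The median of the 10 was -0.41, against -0.01 for all genes. *Hmgb1* had 226.6, 174.3, 180.3 and 168.1 CPM untreated and 96.51, 84.11, 90.32 and 91.24 after 20 Gy, a 2.01-fold decrease without overlap (log2 -1.01 ± 0.105 SE, edgeR adjusted p = 0.00122). After 10 Gy it had 118.5, 88.36, 91.02 and 104.5 CPM, again below every untreated library (log2 -0.85, edgeR adjusted p = 0.00495). Mouse *Hmgb1* has 13 pseudogene or related-sequence rows in the table, so its mouse counts are uncertain where reads could fit several copies.

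*Hmgb2* in C56BL6 at 12 d had 21.42, 10.5, 9.234 and 10.96 CPM untreated and 6.681, 6.637, 6.711 and 4.769 after 20 Gy, with replicate 1 highest among the untreated (log2 -1.03 ± 0.281 SE, edgeR adjusted p = 0.0292). *Lbr* had 20.84, 15.1, 17.52 and 18.07 CPM untreated and 12.63, 11.12, 11.97 and 12.7 after 20 Gy (log2 -0.52 ± 0.114 SE, edgeR adjusted p = 0.0131). *Sun1* had 125.4, 87.6, 90.93 and 90.44 CPM untreated and 76.58, 62.45, 70.13 and 73.91 after 20 Gy (log2 -0.44 ± 0.13 SE, edgeR adjusted p = 0.0396). For these 3 genes as well no irradiated library reached an untreated one. At 10 Gy *Sun1* (log2 -0.45, edgeR adjusted p = 0.0382) and *Hmgb1* were the 2 of the 10 called, where 10.6% of all genes were called lower and 20.9% in either direction. Counting both directions, the share is similar to that of all genes. Matched by animal, 6 were called at 10 Gy among 38.8% of all genes, with *Lmnb1* (adjusted p = 0.0353), *Lbr* (0.0115) and *Hmgb2* (0.00726) lower and *Lmna* higher (0.0205) in addition.

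*Lmnb1* in C56BL6 at 12 d had 20.91, 9.41, 10.43 and 11.62 CPM untreated and 9.054, 6.791, 7.735 and 7.885 CPM after 20 Gy. The groups did not overlap, replicate 1 was the highest of both, and the gene was not called (log2 -0.70 ± 0.257 SE, edgeR adjusted p = 0.0785; 0.0139 matched by animal). *Lmnb2* (log2 0.12, edgeR adjusted p = 0.691), *Tmpo* (-0.38, 0.421), *Emd* and *Sun2* were not called. *Lmna* had 505.3, 541.2, 351 and 328.9 CPM untreated and 559.8, 630.1, 541 and 501.1 after 20 Gy, higher in every animal but overlapping (log2 0.41 ± 0.177 SE, edgeR adjusted p = 0.119; 0.0135 matched by animal). Between 1 and 5 of the 10 genes were called lower at 20 Gy when a replicate was left out, and *Hmgb1* was called each time, with an adjusted p of at most 0.0265. Fibroblast markers moved with these groups: they summed to 29300 to 49000 CPM in untreated C56BL6 cells at 12 d and to 10700 to 14500 after 20 Gy. The keratinocyte markers of replicate 1 summed to 837 CPM untreated and 244 after 20 Gy, and the part of both lists was not tested.

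At 24 h edgeR called none of the 10 genes in C56BL6 at either dose. *Lmnb1* had 72.44, 59.85, 82.06 and 70.03 CPM untreated and 54.14, 64.41, 77.28 and 69.69 after 20 Gy, fully overlapping groups (log2 -0.09). Of the 10 genes *Hmgb1* had the lowest estimate, -0.38 (edgeR adjusted p = 0.399), and 0.0895% of all genes were called. At 20 Gy 1 gene of the 10 had an unadjusted p under 0.05 and DESeq2 called 0. Matched by animal, *Lbr* (-0.18, adjusted p = 0.044), *Tmpo* (-0.32, 0.00119) and *Hmgb1* (-0.37, 0.000478) were lower, among 17.6% of all genes. At 10 Gy none was called among 0.00700% of all genes, with 2 at an unadjusted p under 0.05 and 0 by DESeq2, and 4 were called matched by animal (*Lmnb2*, *Tmpo*, *Hmgb1* and *Hmgb2*), among 11.5%. Between 20 Gy and 10 Gy edgeR called none of the 10 at either time in C56BL6, among 0% of all genes, with 0 at an unadjusted p under 0.05 and 0 by DESeq2.

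**Figure D2:**
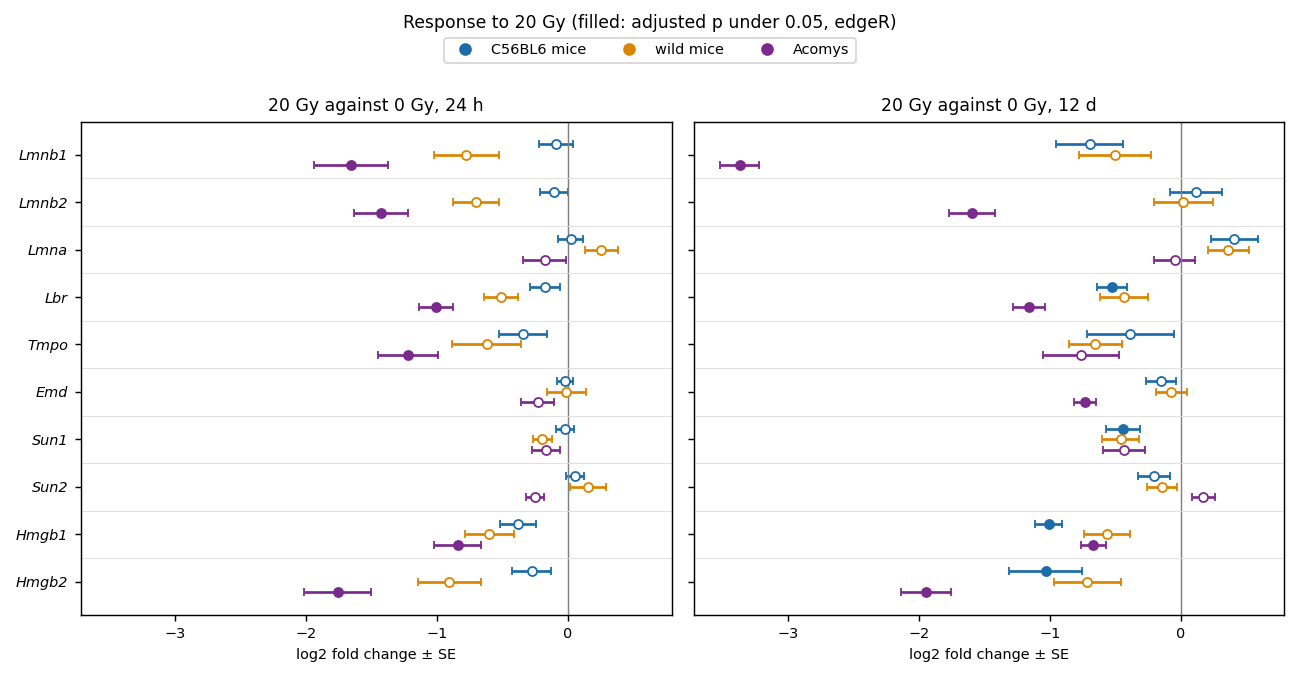
Log2 fold change (point) and SE (bar) of each gene at 20 Gy against untreated cells, at 24 h and 12 d; filled points have an edgeR adjusted p under 0.05. In this unmatched fit filled points are confined to *Acomys* at 24 h. Matched by animal, 3 genes in C56BL6 and 6 in wild mice were also called then, among 17.6% and 12.5% of all genes. At 12 d *Lmnb1* of *Acomys* lies at -3.37, far from both mouse populations.

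In wild mice edgeR called no gene of the 10 at 20 Gy or 10 Gy at either time. The share of all genes called was 0% at 24 h for both doses, 0.0694% at 12 d for 20 Gy and 0.264% at 12 d for 10 Gy. At 20 Gy 7 of the 10 had an unadjusted p under 0.05 at 24 h and 6 at 12 d, and at 10 Gy 3 and 2. At 24 h DESeq2 called 3 at 20 Gy, among 0.763% of all genes, and 1 at 10 Gy, among 0.666%, and at 12 d it called 0. *Lmnb1* at 24 h had 43.98, 68.73, 96.54 and 63.88 CPM untreated and 33.62, 40.9, 50.82 and 32.48 after 20 Gy. Every animal was lower after irradiation, but the range across animals was wide and the groups overlap (log2 -0.78 ± 0.248 SE, edgeR adjusted p = 0.696; 0.00118 matched by animal). *Hmgb2* had 19.18, 34.4, 40.17 and 35.97 CPM untreated and 14.06, 18.63, 20.91 and 14.94 after 20 Gy (log2 -0.90, adjusted p 0.623; 0.0014 matched by animal). These groups overlap only in that untreated replicate 1 lies below irradiated replicate 3. Some other genes had ranges that did not overlap. *Lmnb2* had 24.32 to 36.05 CPM untreated and 13.82 to 19.88 after 20 Gy, and *Lbr* 24.94 to 34.44 and 19.96 to 21.97. *Sun1* had 95.17 to 98.21 and 82.18 to 83.89 CPM, and *Hmgb1* 94.54 to 151.6 and 63.54 to 94.47. The ranges of *Lmna*, *Tmpo*, *Emd* and *Sun2* overlapped. How many of all genes were apart in this way is not given.

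Matched by animal, 6 genes were lower in wild mice at 24 h after 20 Gy, among 12.5% of all genes called: *Lmnb1*, *Lmnb2*, *Lbr*, *Tmpo*, *Hmgb1* and *Hmgb2*. The matched fit without replicate 1 also called 6 lower, among 16.6% of all genes. At 10 Gy the matched fit called none, among 0% of all genes and with 4 of the 10 at an unadjusted p under 0.05, and without the deviating replicate 1 it called 7 lower and *Lmna* higher (0.29, adjusted p = 0.0292), among 11.5% of all genes called lower. In that fit *Lmnb1* changed by -0.92 (adjusted p = 4.3e-05), *Lmnb2* by -1.03 (6.44e-05) and *Hmgb2* by -1.40 (2.57e-05).

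At 12 d *Lmnb1* in wild mice had 9.905, 11.13, 11.69 and 18.59 CPM untreated and 7.38, 11.01, 6.248 and 10.91 after 20 Gy, overlapping groups (log2 -0.50 ± 0.273 SE, edgeR adjusted p = 0.475). *Hmgb1* had 141.7, 126.5, 113.9 and 155.8 CPM untreated and 103.6, 94.91, 63.44 and 95.07 after 20 Gy, which do not overlap but gave no call (log2 -0.56, edgeR adjusted p = 0.234). The fibroblast markers summed to 59300, 87200, 13400 and 52600 CPM in these untreated libraries and to 28600, 20000, 11300 and 30100 after 20 Gy, and their part was not tested. Matched by the numbers as labelled, *Tmpo* (adjusted p = 0.0235), *Sun1* (0.0332), *Hmgb1* (0.0141) and *Hmgb2* (0.0204) were lower, among 15.4% of all genes. Without replicate 1, whose 12 d libraries did not follow their label, the matched fit called none of the 10, among 0.846% of all genes called lower and with 5 at an unadjusted p under 0.05, and gave *Hmgb1* an adjusted p of 0.0673. At 10 Gy 3 genes were lower by the matched fit (*Tmpo*, *Sun1* and *Hmgb1*, among 12.7% of all genes) and none without replicate 1, among 2.52% and with 3 at an unadjusted p under 0.05. Between 20 Gy and 10 Gy edgeR called none at either time, among 0% of all genes, with 0 at an unadjusted p under 0.05 and 0 by DESeq2. Matched by animal, *Lmnb1* was lower at 20 Gy than at 10 Gy at 12 d (-0.54, adjusted p = 0.0204), among 0.257% of all genes, and without replicate 1 none was, among 0.0538% and with 3 at an unadjusted p under 0.05.

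The difference between populations in the response to 20 Gy was tested directly, over genes shared by both tables where *Acomys* was involved. At 24 h the change in *Acomys* was more negative than in C56BL6 for *Lmnb1* by log2 1.57 (estimate -1.57 ± 0.331 SE, edgeR adjusted p = 0.0192), for *Lmnb2* (-1.33, 0.00796), for *Lbr* (-0.84, 0.0212) and for *Hmgb2* (-1.49, 0.0182). These were 4 of the 10, where 1.89% of all genes were called more negative and 2.09% in either direction, and between 0 and 3 were called when a replicate was left out. Matched by animal, 7 were called, among 16.8% of all genes. Between *Acomys* and wild mice at 24 h edgeR called none, among 0% of all genes, with 5 at an unadjusted p under 0.05 and 0 by DESeq2, and 6 matched by animal, among 7.25%. Without replicate 1 the matched fit called *Lmnb1* (-0.82, adjusted p = 0.00329), *Tmpo* (-0.60, 0.00944) and *Hmgb2* (-0.78, 0.00427), among 7.06% of all genes.

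At 12 d the response of *Lmnb1* was more negative in *Acomys* than in C56BL6 (log2 -2.67 ± 0.298 SE, edgeR adjusted p = 0.000143), a 6.38-fold difference of the fold changes. *Lmnb2* (-1.71, 0.000882), *Lbr* (-0.63, 0.0201) and *Emd* (-0.58, 0.00801) also differed, 4 of the 10 where 10.7% of all genes were more negative and 18.8% differed at all. Matched by animal, 6 were more negative than in C56BL6, among 20.4% of all genes, and 1 less negative. Against wild mice *Lmnb1* (-2.86 ± 0.318 SE, 0.00192), *Lmnb2* (-1.60, 0.013) and *Emd* (-0.65, 0.024) differed, where 2.18% of all genes were more negative and 3.35% differed, and 6 of the 10 differed matched by animal, among 23.3%. Without replicate 1 the unmatched difference from wild mice was not called for *Lmnb1* (adjusted p = 0.101) or any other of the 10, and the matched fit called *Lmnb1* (-2.84, adjusted p = 0.00449), *Lmnb2* (-1.77, 0.0103) and *Hmgb2* (-1.29, 0.03), among 7.63% of all genes. Between wild and C56BL6 cells edgeR called no difference in response for the 10 at either time, among 0% of all genes, with 3 at 24 h and 1 at 12 d at an unadjusted p under 0.05 and 0 by DESeq2. Matched by animal, the 24 h response was more negative in wild mice for *Lmnb1* (-0.66, adjusted p = 0.0437) and *Lmnb2* (-0.61, 0.0409), among 0.647% of all genes. Without replicate 1 this fit called *Lmnb1* (-0.88, adjusted p = 0.00116), *Lmnb2*, *Tmpo* and *Hmgb2*, among 5.08% of all genes. The untreated reference of these comparisons is itself a level to read beside them: *Lmnb1* in untreated cells stood at 49.26 CPM at 12 d and 116.2 CPM at 24 h in *Acomys*, and at 13.09 and 71.09 CPM in C56BL6, with time and batch confounded.

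The untreated passaged cells give a second reference at 12 d. In both mouse populations the passaged cells had far more *Lmnb1*, *Lmnb2*, *Lbr*, *Tmpo* and *Hmgb2* than the untreated cells of the same day, and in C56BL6 also more *Lmna*. In *Acomys* edgeR called *Lbr* and no other of the 10 unless libraries were matched by animal. The passaged, 20 Gy and 10 Gy groups were all compared with the same untreated libraries.

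*Lmnb1* in C56BL6 had 71.16, 55.77, 69.06 and 67.75 CPM in passaged cells, all far above the 9.41 to 20.91 CPM of untreated cells at 12 d. The difference was 5.05-fold (log2 2.34 ± 0.256 SE, edgeR adjusted p = 0.000425). The other genes higher in passaged C56BL6 cells were *Hmgb2* (2.84-fold, edgeR adjusted p = 0.00237), *Tmpo* (2.82-fold, 0.00757), *Lmnb2* (2.46-fold, 0.00209), *Lbr* (1.92-fold, 0.000745) and *Lmna* (1.85-fold, 0.00696), which makes 6 of the 10 where 24.2% of all genes were higher and 49.6% differed. *Hmgb2* had 39, 32.31, 40.11 and 36.47 CPM in these cells, above every untreated library of that day. *Lmna* had 970.2, 803.2, 661.5 and 745.6 CPM, also without overlap. *Hmgb1* did not follow them: it had 186.1, 135.4, 153.1 and 154.2 CPM, overlapping the untreated values (log2 -0.25, edgeR adjusted p = 0.142; 0.0191 matched by animal).

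In wild mice *Lmnb1* had 46.37, 70.38, 59.27 and 70.39 CPM in passaged cells against 9.905 to 18.59 CPM untreated, a 4.78-fold difference without overlap (log2 2.26 ± 0.235 SE, edgeR adjusted p = 0.01). *Hmgb2* was 3.31-fold higher (34.84, 39.31, 27.62 and 38.5 CPM, edgeR adjusted p = 0.0118), with *Lmnb2* (2.10-fold, 0.0334), *Tmpo* (2.08-fold, 0.0265) and *Lbr* (1.84-fold, 0.016) also higher. These 5 of the 10 stood against 5.51% of all genes called higher and 10.7% called at all. None was called without replicate 1 or without replicate 4, where *Lmnb1* kept its size without replicate 1 (2.27, adjusted p = 0.16). Matched by animal and without replicate 1 *Lmnb1*, *Lmnb2*, *Lbr*, *Tmpo* and *Hmgb2* were called, among 6.80% of all genes called higher, with an adjusted p of 0.0168 for *Lmnb1*.

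In *Acomys* passaged cells *Lmnb1* had 67.84, 37.67, 82.18 and 97.91 CPM, a range in which replicate 2 lies below all untreated values and the others above them (log2 0.52, edgeR adjusted p = 0.178). *Lbr* had 26.28, 20.72, 28.49 and 28.94 CPM, all above the untreated libraries, and was 1.62-fold higher (log2 0.70 ± 0.133 SE, edgeR adjusted p = 0.00775; 0.0712 without replicate 1). It was 1 of the 10, where 12.1% of all genes were higher and 25.8% differed, so no larger a share than among all genes. *Tmpo* went the other way, with 74.74, 46.46, 84.47 and 97.49 CPM, lower than untreated in every animal (log2 -0.53, edgeR adjusted p = 0.16; 0.000174 matched by animal). Matched by animal, *Lmnb1* (adjusted p = 0.0285), *Lmnb2* (0.00924), *Lbr* and *Hmgb2* (0.018) were higher, among 49.5% of all genes called. With *Tmpo* included, the share called by that fit was similar to that of all genes.

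The effect of passaging itself differed between *Acomys* and C56BL6 for *Tmpo* (log2 -2.04, edgeR adjusted p = 0.00486), *Lmnb1* (-1.82 ± 0.385 SE, 0.00379) and *Lmna* (-0.91, 0.0213). These were 3 of the 10 beside 27.7% of all genes called, a similar share. Matched by animal 5 of the 10 differed beside 45.2%, again a similar share. Between *Acomys* and wild mice the effect of passaging differed for *Lmnb1* (-1.73, edgeR adjusted p = 0.025) and *Tmpo* (-1.59, 0.0292), among 3.46% of all genes. Matched by animal *Hmgb2* was added (0.0082), among 23.8%. The calls against wild mice were lost without replicate 1 (*Lmnb1* -1.76, adjusted p = 0.237), without replicate 3 and without replicate 4, and those against C56BL6 without replicate 3. Matched by animal and without replicate 1, *Lmnb1* (-1.89, adjusted p = 0.0158), *Tmpo* (-1.68, 0.00532) and *Hmgb2* (-1.38, 0.0368) differed from wild mice, among 8.60% of all genes.

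With the passaged cells as reference, the 20 Gy cells at 12 d were low in *Lmnb1* in all 3 populations. The log2 change was -3.91 ± 0.3 SE in *Acomys* (edgeR adjusted p = 7.8e-05), -3.06 ± 0.116 in C56BL6 (8.55e-06) and -2.77 ± 0.237 in wild mice (0.00481), the last a 6.82-fold decrease. *Hmgb2* was lower by 5.82-fold, 5.91-fold and 5.47-fold in the same order. All 10 genes were lower in C56BL6, from *Lmnb1* to *Emd* (-0.27, edgeR adjusted p = 0.0142), where 21.2% of all genes were called lower and 41.6% at all. In *Acomys* 7 were lower, all but *Lmna* (-0.04), *Tmpo* (-0.24, edgeR adjusted p = 0.548; 0.0303 matched by animal) and *Sun2* (0.22), where 42.5% of all genes differed. In wild mice 6 were lower (*Lmnb1*, *Lmnb2*, *Lbr*, *Tmpo*, *Sun1* and *Hmgb2*), where 6.10% of all genes were lower and 10.5% differed. The wild calls were lost without replicate 1 or without replicate 4, and 8 of the 10 were called lower in the matched fit without replicate 1, among 14.2% of all genes.

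**Figure D3:**
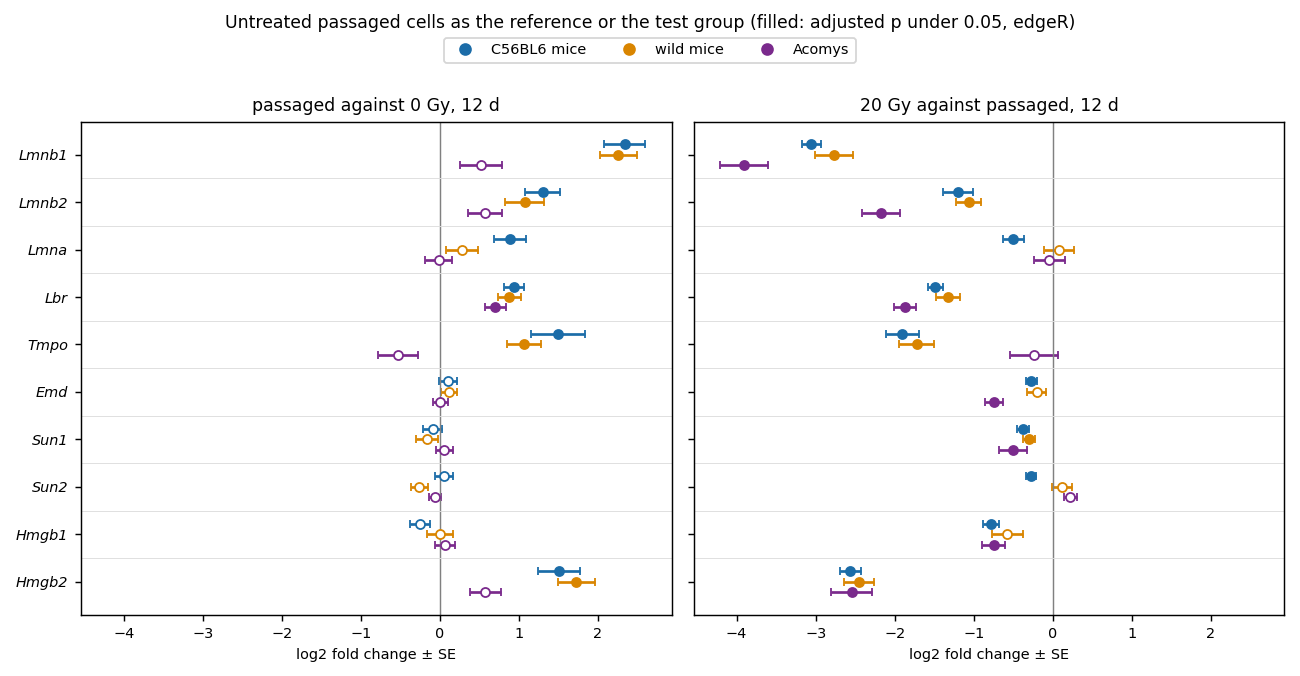
Log2 fold change (point) and SE (bar) of passaged against untreated cells at 12 d, and of 20 Gy against passaged cells; filled points have an edgeR adjusted p under 0.05. On the left the mouse populations lie at 2.34 and 2.26 for *Lmnb1* and *Acomys* at 0.52; on the right all 3 lie below -2.7.

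The ratio of *Lmnb1* to *Lmna* per length was computed in each library. In *Acomys* *Lmnb1* stood at 25.2 ± 4.27% of *Lmna* RPKM (SD, n = 4) in untreated cells at 24 h and at 8.81 ± 2.58% after 20 Gy. At 12 d it stood at 11.5 ± 0.863% untreated, 7.59 ± 3.24% after 10 Gy, 1.16 ± 0.0888% after 20 Gy and 16.3 ± 3.42% in passaged cells. In C56BL6 it stood at 20.3 ± 4.81% untreated and 18.5 ± 3.32% after 20 Gy at 24 h. At 12 d it was 6.10 ± 2.01% untreated, 2.81 ± 0.482% after 20 Gy and 16.7 ± 3.19% in passaged cells. Wild mice had 5.42 ± 1.14% untreated, 3.03 ± 0.92% after 20 Gy and 22.6 ± 6.68% in passaged cells at 12 d. The untreated mouse cells at 12 d had a mean ratio nearer to that of their irradiated cells than to that of their passaged cells, and the mean of the untreated *Acomys* cells lay between those of their 10 Gy and their passaged cells, far above that of their 20 Gy cells.

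**Figure D4:**
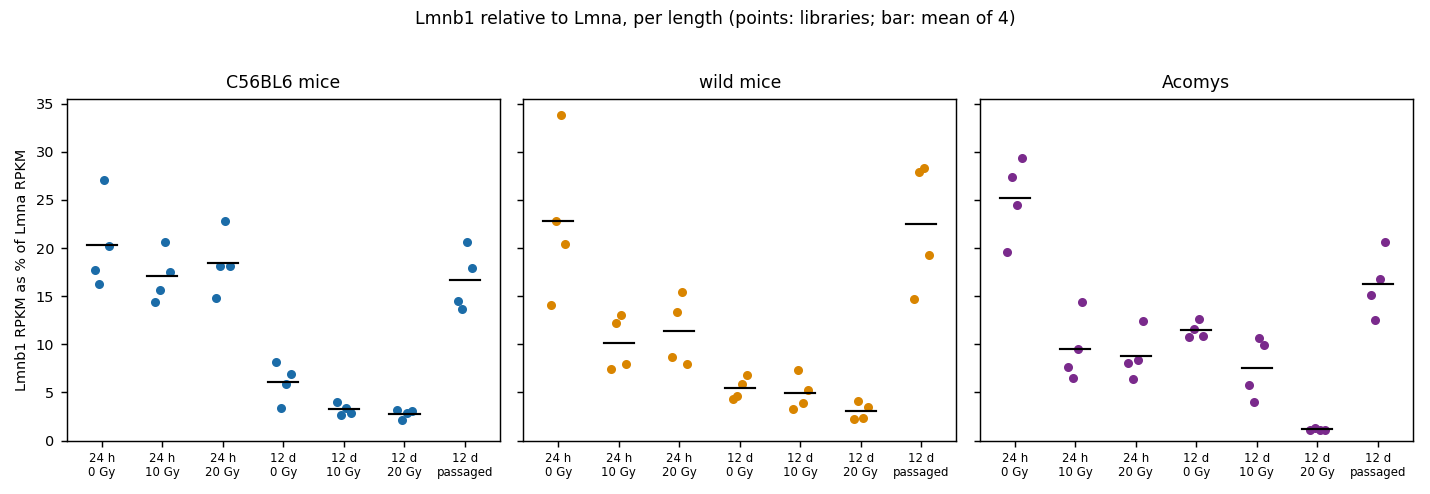
*Lmnb1* RPKM as a percent of *Lmna* RPKM in each library, by group and population, with a bar at the mean of 4. The 4 *Acomys* libraries at 20 Gy and 12 d lie together near 1.16%, below every other *Acomys* group.

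The share of *Hmgb2* relative to *Hmgb1*, per length, describes the 2 HMGB genes. In *Acomys* *Hmgb2* stood at 12.4 ± 1.48% of *Hmgb1* RPKM in untreated cells at 12 d, at 5.07 ± 1.28% after 20 Gy and at 17.4 ± 1.75% in passaged cells. In C56BL6 the share was 11.3 ± 3.14% untreated and 11.5 ± 1.95% after 20 Gy, within each other's spread, and 39.6 ± 3.58% in passaged cells. In wild mice it was 12.9 ± 2.14% untreated, 12.0 ± 1.84% after 20 Gy and 43.6 ± 1.46% in passaged cells. At 24 h it went from 22.9 ± 1.96% untreated to 12.1 ± 1.57% after 20 Gy in *Acomys*, while C56BL6 (43.9 ± 5.34% and 47.7 ± 8.22%) and wild mice (44.3 ± 11.3% and 37.1 ± 12.2%) had overlapping values.

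Of 14 other inner nuclear membrane and lamina partners, 4 fell and 1 rose in *Acomys* at 12 d after 20 Gy, with a median log2 change of -0.14 (0.00 for all genes); these 5 of 14 stood beside the 31.8% of all genes called in that comparison, a similar share. *Nrm*, which encodes the membrane protein nurim, fell by 1.10 (edgeR adjusted p = 0.00272), the heterochromatin protein 1 genes *Cbx5* and *Cbx3* by 0.73 (0.0212) and 0.56 (0.00439), and *Nemp1* by 0.30 (0.0313), whereas *Tor1a*, an ATPase of the nuclear envelope, rose by 0.26 (0.023). At 24 h *Nemp1* (-0.70, edgeR adjusted p = 0.00311) and *Cbx5* (-0.63, 0.0249) fell in *Acomys*. In C56BL6 at 12 d, 3 of 13 tested fell, *Tor1a*, *Cbx1* and *Cbx3*, by 0.35, 0.34 and 0.43, where 13.6% of all genes fell and 26.5% were called. In wild mice none was called at 20 Gy. The 3 nesprin genes, partners of SUN1 and SUN2, did not pass the test at 20 Gy in any population.

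Lamin tails are processed by 5 enzymes measured here. In C56BL6 at 12 d after 20 Gy *Zmpste24*, the protease that matures prelamin A, rose by 0.38 (edgeR adjusted p = 0.00339) and *Icmt*, a methyltransferase of the same path, by 0.41 (0.00424), while *Rce1* fell by 0.47 (0.0138), 3 of 5 enzymes where 26.5% of all genes were called. In *Acomys* *Rce1* fell by 0.42 (edgeR adjusted p = 0.0331) and *Fntb*, a subunit of farnesyltransferase, fell as well (0.000787), 2 of the 5 where 31.8% of all genes were called. In wild mice none was called.

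Among 7 other high mobility group genes, calls went in both directions. In C56BL6 at 12 d after 20 Gy *Hmga2* rose by 1.93 (edgeR adjusted p = 0.00105) and *Hmga1* by 1.61 (0.0137), while *Hmgn2* fell by 1.14 (0.00296) and *Hmgn1* by 0.28 (0.0407), 4 of 7 beside 26.5% of all genes. In *Acomys* *Hmga2* rose by 1.17 (edgeR adjusted p = 0.00176) and *Hmgn3* by 0.50, while *Hmga1* fell by 1.48 (0.00425), *Hmgn2* by 0.76 (0.005) and *Ssrp1* by 0.60 (0.000851), 5 of 7 beside 31.8% of all genes. HMGA proteins bind AT-rich DNA and are known from senescent heterochromatin as well as from dividing cells. In passaged C56BL6 cells 5 of the 7 were higher than untreated, led by *Hmga2* (3.32), *Hmga1* (3.01) and *Hmgb3* (2.34), where 24.2% of all genes were higher. Of 3 receptors that HMGB1 can bind, *Ager* rose in *Acomys* at 12 d after 20 Gy (1.03, edgeR adjusted p = 0.0286), where 31.8% of all genes were called. None of the 3 was called in either mouse population at 20 Gy.

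Levels of 10 proliferation genes, among them *Mki67*, *Top2a* and *Ccna2*, are given beside these results, and their part in them was not tested. In *Acomys* 9 of the 10 were lower at 20 Gy at 24 h (median -1.50, 2.70% of all genes lower) and 9 at 12 d (median -2.42, 18.1%), none at 10 Gy at 12 d (median -0.31), and 7 were higher in passaged cells (median 0.87, 12.1% of all genes higher). In C56BL6 none was called at 24 h after 20 Gy and 1, *Ccna2*, at 12 d (-1.83, edgeR adjusted p = 0.0385), while all 10 were higher in passaged cells (median 2.60, 24.2% of all genes higher). In wild mice none was called at 20 Gy at either time and 3 were higher in passaged cells (median 2.49, 5.51% of all genes higher). Matched by animal, 10 were lower in *Acomys* at 24 h after 20 Gy, among 24.1% of all genes called, and 5 were lower and 1 higher in C56BL6 at 12 d. In wild mice that fit called 4 lower at 24 h, among 12.5%, and 2 lower and 1 higher at 12 d, among 15.4%. All 10 were higher by it in passaged cells of every population, among 49.5% of all genes in *Acomys*. The 3 p53 targets *Cdkn1a*, *Mdm2* and *Ccng1* all rose in *Acomys* after 20 Gy at 24 h (3.59% of all genes called) and 12 d (31.8%). They also rose in C56BL6 at 12 d (26.5%). At 24 h in C56BL6 *Mdm2* alone rose (0.0895%), and none of the 3 was called in wild mice at 20 Gy (0% at 24 h, 0.0694% at 12 d). Matched by animal, all 3 rose at both times in every population. The matched share at 24 h was 24.1% in *Acomys*, 17.6% in C56BL6 and 12.5% in wild mice, and 15.4% in wild mice at 12 d. That share is not given for 20 Gy at 12 d in C56BL6 and *Acomys* or for passaged mouse cells.

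Across the 28 libraries of a population, each centred on its time point, the correlation of *Lmnb1* with *Mki67* was 0.973 in C56BL6, 0.869 in wild mice and 0.979 in *Acomys*. *Hmgb2* had 0.965, 0.827 and 0.938, and *Lbr* 0.941, 0.689 and 0.934. *Lmna* had 0.614, 0.145 and 0.316, and *Sun2* 0.731, -0.315 and -0.187. The genes whose pattern was most like a member's, by the lowest of the 3 correlations among 12466 genes, were *Ncapg* for *Lmnb1* (0.934), *Chaf1a* for *Lmnb2* (0.919), *Tfdp1* for *Lbr* (0.938), *Hmgb3* for *Tmpo* (0.891) and *Tcf19* for *Hmgb2* (0.941). The best matches were weaker for *Sun1* (*Pcbp2*, 0.804), *Lmna* (*Cycs*, 0.699), *Emd* (*Tbrg1*, 0.645) and *Sun2* (*Furin*, 0.438). These correlations are descriptions: the points share libraries, depth and the large difference between groups.

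**Figure D5:**
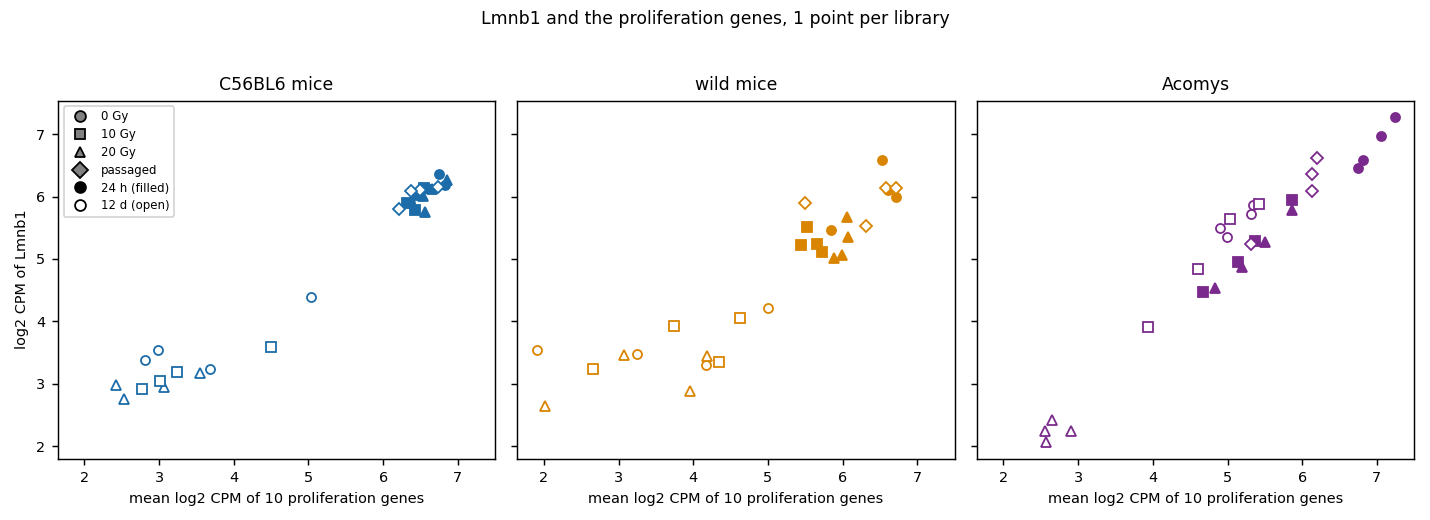
Log2 CPM of *Lmnb1* (y) against the mean log2 CPM of the 10 proliferation genes (x), 1 point per library; shapes give the dose or passaging, filled points 24 h and open points 12 d. Most untreated mouse cells at 12 d lie low on both axes near the irradiated cells of that day. C56BL6 replicate 1 (5.03) and wild replicate 4 (4.998) lie further right within their populations. The untreated *Acomys* cells of that day (4.89 to 5.34) lie well above their 20 Gy cells (2.56 to 2.90).

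In untreated cells edgeR called no difference between wild and C56BL6 mice in the 10 genes, at 24 h among 5.70% of all genes or at 12 d among 2.93%, with 2 and 1 at an unadjusted p under 0.05. DESeq2 called *Emd* at 24 h (adjusted p = 0.0275), among 12.4% of all genes, and *Hmgb1* at 12 d (0.0343), among 7.71%. Part of the exon length of some mouse genes overlaps another gene, 13.6% for *Emd*, 10.7% for *Lbr*, 3.98% for *Sun1*, 2.71% for *Sun2* and 1.57% for *Hmgb1*, and the authors' counting set no strand option.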

How the data were processed

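PolyA RNA from primary skin fibroblasts was sequenced from stranded mRNA libraries, per the labels. The authors deposited raw counts per gene, made with featureCounts 2.0.3 and no strand, read-pair or multi-mapping option, per the file headers; gene lengths come from the same tables. The submitters' processing notes also name Trim Galore, HISAT2 and GRCm39; the *Acomys* headers name AcoCah2. From these counts, CPM and RPKM were computed with TMM library sizes, and edgeR 4.0.16 (R 4.3.3) was fitted to the libraries of the 2 groups compared with quasi-likelihood tests, over all genes passing its filter, at an adjusted p of 0.05, in 34 comparisons. Responses of 2 populations were compared by an interaction term over their 4 groups, on 18109 shared gene symbols where *Acomys* was involved, with size factors computed within each table. DESeq2 1.42.0, RLE size factors, no filter, all groups in one fit, the replicate block and leaving out each replicate were alternatives. Correlations used log2 CPM with a prior count of 2.

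Groups came from the labels, and 0 count columns were unused. Replicate numbers match animal codes in the library names. Within a time, libraries of one number deviated from their group means together (mean correlation 0.505 to 0.886 for the same number and -0.294 to -0.123 for others). The numbers therefore pair the libraries within a time, wild replicate 1 at 12 d included. Across times the wild libraries numbered 1 did not follow their label, as given above. All replicate pairs differed by more than sampling noise. The unmatched test was checked on simulated libraries with the same dispersion for all genes and no animal effect. No wild mouse comparison was simulated, so the check does not cover paired libraries or the wild groups.

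The 10 genes and all lists were chosen with earlier results of these data known. All 10 are named; from each companion list up to 4 genes are named, those with the largest change among genes called at 20 Gy and 12 d, and further ones only where they spell out a count, chosen after their values were seen. The gene most like *Hmgb1* is not reported here.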

Additional observations from a re-analysis of the deposited data

Results flagged for a closer look

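A library was looked at again where its distance from the other 3 of its group, divided by the range of the 4, passed Dixon's critical value of 0.829. This held for 18 of 210 gene and group combinations, where chance gives about 1 in 20.

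In C56BL6, replicate 1 accounts for most of them. At 12 d in untreated cells it had 76.32 CPM of *Tmpo* (29 to 33.57 in the others), 21.42 of *Hmgb2* (9.234 to 10.96) and 125.4 of *Sun1* (87.6 to 90.93). *Tmpo* was also high in that animal after 10 Gy, at 57.62 CPM (29.22 to 30.14), and in passaged cells, at 163.9 CPM (103.1 to 105.5). At 24 h it had 22.54 CPM of *Lmnb2* after 10 Gy (16.38 to 17.29), 83.48 of *Emd* untreated (74.76 to 75.56) and 122.4 of *Sun2* untreated, below the others (128.3 to 128.9). The keratinocyte markers of this animal are given above; their part was not tested. Replicate 4 had 128.2 CPM of *Sun2* in passaged cells (116.9 to 118) and 4.769 of *Hmgb2* at 12 d after 20 Gy (6.637 to 6.711).

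In wild mice, replicate 1 of the 10 Gy group at 24 h had 3.308 CPM of *Lbr*, 43.35 of *Sun1* and 38.69 of *Hmgb2*. Replicate 3 at 12 d after 10 Gy had 73.06 CPM of *Sun1* (78.52 to 79.19 in the others). In *Acomys*, replicate 2 had 406 CPM of *Lmna* in untreated cells at 24 h (626.5 to 670), 78.16 of *Sun1* after 20 Gy at 24 h (95.21 to 97.99) and 19.84 of *Emd* after 20 Gy at 12 d (22.39 to 22.66). Replicate 4 had 21.13 CPM of *Lbr* after 10 Gy at 24 h (16.31 to 17.04).

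The effects that differed between populations by an interaction term were also looked at again. For the response to 20 Gy at 24 h, *Acomys* minus C56BL6 was -1.57 for *Lmnb1*, -1.33 for *Lmnb2*, -0.84 for *Lbr* and -1.49 for *Hmgb2* (log2). At 12 d it was -2.67 for *Lmnb1*, -1.71 for *Lmnb2*, -0.63 for *Lbr* and -0.58 for *Emd*, and *Acomys* minus wild was -2.86 for *Lmnb1*, -1.60 for *Lmnb2* and -0.65 for *Emd*. For passaging, *Acomys* minus C56BL6 was -1.82 for *Lmnb1*, -0.91 for *Lmna* and -2.04 for *Tmpo*, and *Acomys* minus wild was -1.73 for *Lmnb1* and -1.59 for *Tmpo*.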

How the results depend on the processing

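Numbers here count how many of the 10 genes were called. The share of all genes called by the same fit is given above for only some of these alternatives. Where it is missing, a changed count cannot be told apart from a fit that calls more or fewer genes in general. With the replicate block, which pairs libraries of one animal, the count rose in C56BL6 from 0 to 3 (20 Gy, 24 h), 0 to 4 (10 Gy, 24 h) and 2 to 6 (10 Gy, 12 d). In wild mice it rose from 0 to 6 (20 Gy, 24 h), 0 to 4 (20 Gy, 12 d), 0 to 3 (10 Gy, 12 d) and 0 to 1 (20 against 10 Gy, 12 d). In *Acomys* it rose from 6 to 10 (10 Gy, 24 h), 0 to 3 (10 Gy, 12 d), 1 to 7 (20 against 10 Gy, 12 d) and 1 to 5 (passaged). For differences in response between populations the block moved it from 4 to 7, 0 to 6 and 0 to 2 at 24 h (*Acomys* minus C56BL6, *Acomys* minus wild, wild minus C56BL6), from 4 to 7 and 3 to 6 at 12 d, and from 3 to 5 for passaging. The block without wild replicate 1, added after the data were seen, gave 6 (20 Gy, 24 h), 8 (10 Gy, 24 h) and 1 (20 against 10 Gy, 24 h) where the unmatched fit gave 0; in the last, *Hmgb2* reversed from -0.26 to 0.38. Between populations at 24 h it gave 3 for *Acomys* minus wild and 4 for wild minus C56BL6.

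DESeq2 gave 3 and 1 in wild mice at 24 h (20 and 10 Gy, both 0 with edgeR), 6 and 3 in *Acomys* (20 against 10 Gy at 12 d, passaged, both 1 with edgeR), 5 for *Acomys* minus wild at 12 d, and 1 for untreated wild against C56BL6 at each time. With all groups in one fit the count was 4 in C56BL6 (10 Gy, 12 d), 1 in wild mice at each dose at 12 d and 5 in *Acomys* (20 against 10 Gy, 12 d), which was 2 with no expression filter.

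Leaving out each replicate gave 1 to 5 (20 Gy), 0 to 4 (10 Gy), 6 to 8 (passaged) and 7 to 10 (20 Gy against passaged) in C56BL6 at 12 d, and 0 to 5 (passaged) and 0 to 6 (20 Gy against passaged) in wild mice. In *Acomys* it gave 0 to 6 (20 Gy) and 0 to 9 (10 Gy) at 24 h, and 6 to 8 (20 Gy), 0 to 6 (20 against 10 Gy), 0 to 5 (passaged) and 6 to 8 (20 Gy against passaged) at 12 d. Differences between populations ranged from 0 to 3 (24 h) and 2 to 5 (12 d) against C56BL6 and 0 to 4 (12 d) against wild mice, and for passaging from 0 to 3 and 0 to 2. Another size factor (RLE) moved the median of all genes by at most 0.0341 on the log2 scale. The cause of these shifts was not tested. The 34 comparisons rest on 4 libraries a group, and the decreases of *Lmnb1*, *Lmnb2*, *Lbr*, *Emd*, *Hmgb1* and *Hmgb2* in *Acomys* at 12 d after 20 Gy were called under every alternative run.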
